A study of Mus musculus with 4 samples.

Results

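The 9 genes described here handle retinoids, the derivatives of vitamin A, in cells of the mouse ovary. They are Rbp4, Stra6, Lrat, Adh1, Aldh1a1, Aldh1a2, Crabp1, Crabp2 and Cyp26b1, chosen by name from the 32285 genes counted, and all 9 were found in the 4 libraries. Single cells of ovaries from 8-week-old female mice of 1 litter were sequenced with a 10x Genomics 3′ kit, with 2 libraries from Fosl2flox/flox mice (Fosl2F/F, the controls) and 2 from Cyp19a1-Cre; Fosl2flox/flox mice (Fosl2cKO). By the protocols, all mice of both groups carried floxed Fosl2 alleles (1 label field calls the controls WT), and only the Fosl2cKO mice carried the Cre recombinase. It is driven by the promoter of Cyp19a1, the estrogen-synthesizing enzyme of granulosa cells (GCs), so the deletion was aimed at GCs and at what they become. Each library is taken as 1 replicate, and p-values measure the spread between these libraries only.

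Retinol circulates bound to RBP4, enters cells through STRA6, and is stored as an ester made by LRAT. Alcohol dehydrogenases such as ADH1 and the retinol dehydrogenases convert retinol to retinal, which ALDH1A1 and ALDH1A2 oxidize irreversibly to retinoic acid. CRABP1 and CRABP2 bind retinoic acid in the cytoplasm, CRABP2 passing it to nuclear receptors, and CYP26B1 degrades it. In the ovary, retinoic acid is best known for a proposed role at the start of meiosis in fetal germ cells.

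The libraries held 120327227 to 148836173 UMIs, each UMI marking 1 captured RNA molecule. After the filters of the study and the removal of likely doublets, 41538 cells were kept, with a median of 11177, 3655, 12297 and 12465 UMIs in Fosl2F/F 1, Fosl2F/F 2, Fosl2cKO 1 and Fosl2cKO 2. Fosl2F/F 2 stands apart, with 19575 cells against 6760 to 8150 in the others. Between 15 and 81 cell barcodes were shared by any pair of libraries. Clusters were formed without any retinoid gene and named from marker genes, hence the suffix "-like". Interstitial-like cells (3552 cells, led by Abcb1b, Gpx3, Hao2 and Star), stromal-like cells (6100), granulosa-like cells (15805) and epithelial-like cells (687) are the 4 classes compared, and each expressed its marker list in every library. Levels are given in CPM, the UMIs of a gene scaled to a common total of UMIs in the class, and lists of 4 values run in the same order of libraries. Fosl2 itself had 161, 167, 167 and 115 CPM in granulosa-like cells, a log2 fold change of -0.25 (standard error 0.20, edgeR adjusted p = 0.9999). Gene-level 3′ counts do not separate the floxed exons, and Fosl2cKO 1 was not below either Fosl2F/F library. The last 2 libraries are therefore referred to by their label.

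Fosl2 encodes a subunit of AP-1, a factor that binds the letters TGANTCA. This motif reads as itself on the other strand. It was searched in RefSeq promoter windows (build GRCm38.p6, 250 bases before to 50 after a start site), of which 8 of the 9 genes had 13. The motif was in 1 window at Aldh1a1 and 1 at Rbp4. Both stretches are shown with the motif in capitals because they are the only matches among these genes. The Aldh1a1 stretch lies at chr19:20492515-20492543 on the plus strand, with the motif 57 bases before the start site, and the Rbp4 stretch at chr19:38124936-38124964 on the minus strand, with the motif 142 bases before the start site of 1 of its windows.
Aldh1a1: gaaatgtcatcTGACTCAgtggggaaact
Rbp4: gcgttcaggagTGAGTCAgggagcgttat
Of all 32851 windows, 7.81% held the motif. A match describes letters and not a bound site.

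The members were not all highest in the same class. Among the named classes, each taken whole, Aldh1a1 and Adh1 were highest in interstitial-like and theca-like cells and Aldh1a2 and Rbp4 in epithelial-like cells. Lrat was highest in stromal-like cells and Crabp2 in granulosa-like and oocyte-like cells, while Stra6 was highest in luteal-like cells of the Fosl2F/F libraries. Single clusters reached similar or higher levels of Rbp4 and Adh1, as given below. In edgeR's quasi-likelihood test on UMIs summed per library and class, with the library as a block, a gene passed when its Benjamini-Hochberg adjusted p was under 0.1 and its log2 fold change was larger than 0.25 in either direction. Crabp1 was too low to be tested between classes. Of the other 8 genes, 4 were higher and 2 lower in interstitial-like than in granulosa-like cells, where 32.6% and 34.0% of 15212 genes were higher and lower. In stromal-like against granulosa-like cells 5 were higher and 3 lower (35.1% and 35.7% of all genes), and in epithelial-like against granulosa-like cells 5 were higher and 2 lower (32.3% and 35.6%). The latter 5 include Lrat, which had 3, 2, 5 and 0 UMIs in epithelial-like cells. Between interstitial-like and stromal-like cells 3 were higher and 3 lower in the former (29.0% and 33.0%). Most of all genes passed in these 4 contrasts (66.6%, 70.9%, 67.9% and 62.0%), so the shares of these genes are given without a reading, and the values below carry the description. The median log2 difference of the 8 genes from granulosa-like cells was 0.83, 2.30 and 1.58 in interstitial-like, stromal-like and epithelial-like cells, beside -0.02, -0.01 and -0.07 for all genes.
Some of these calls rested on single choices. Without Fosl2cKO 1, Rbp4 no longer passed in interstitial-like, Stra6 in stromal-like and Lrat in epithelial-like against granulosa-like cells (edgeR adjusted p = 0.488, 0.234 and 0.279), and without Fosl2cKO 2 this held for Rbp4 and Stra6 (0.144 and 0.116). Rbp4 and Lrat also no longer passed after a stricter removal of doublets (0.131 and 0.291). In epithelial-like against granulosa-like cells it gave 4 higher and 3 lower, with Adh1 at a log2 difference of -1.29 (edgeR adjusted p = 0.0219) against 0.17 in the reported test (edgeR adjusted p = 0.734). With coarser clusters no cluster was named theca-like. The interstitial-like class then held a cluster led by Abcb1b and Cyp17a1 and another led by Ces2a and Hsd17b7. In this wider class Cyp26b1 was 3.28 log2 units higher than in granulosa-like cells. It no longer differed past the threshold from stromal-like cells (log2 difference 0.0043).

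**Figure D1:**
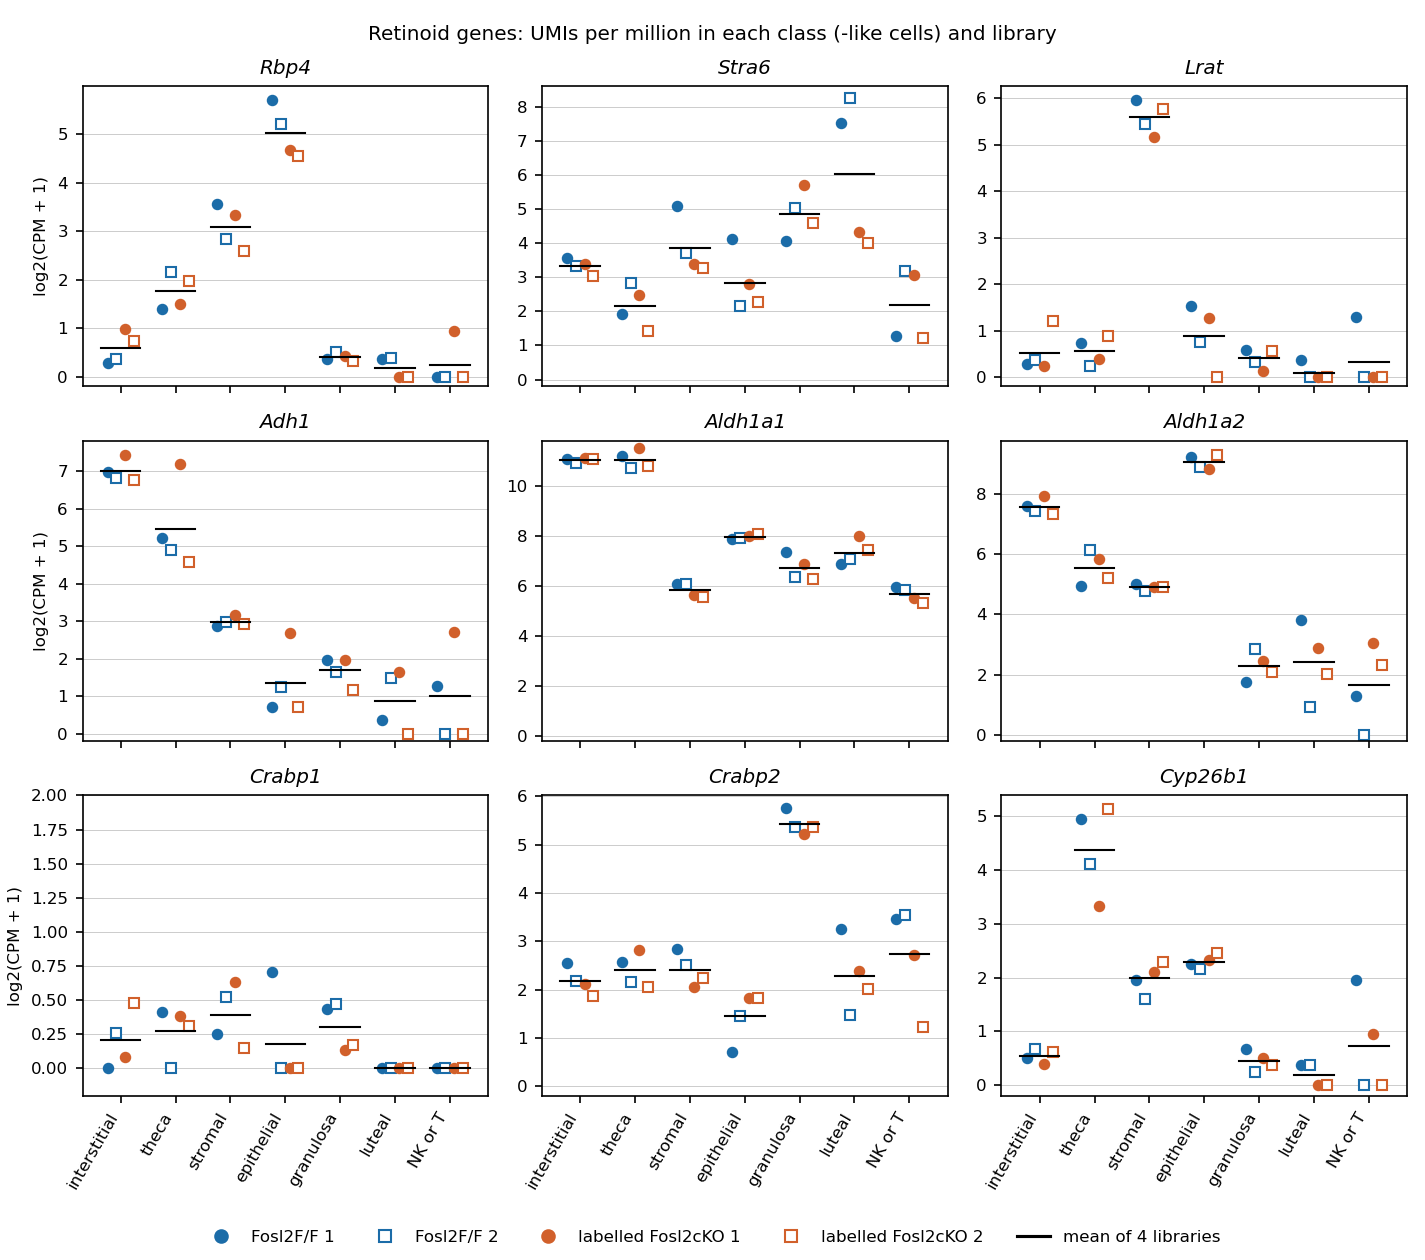
Level of each of the 9 genes as log2(CPM + 1) on the vertical axis (a scale for each panel) in 7 classes of cells, with 1 point per library and a line at the mean of the 4 libraries. Among the 7 classes drawn, Lrat stood out in stromal-like cells, Aldh1a2 and Rbp4 in epithelial-like cells, and Crabp2 in granulosa-like cells, in each library. Stra6 in luteal-like cells split by condition.

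Rbp4 (ENSMUSG00000024990, GRCm38 chromosome 19, 38116629 to 38125281, minus strand) encodes the carrier of retinol in blood. In epithelial-like cells it had 51.2, 35.8, 24.5 and 22.4 CPM, from 81, 104, 86 and 35 UMIs. Both Fosl2F/F values lay above both others, but the difference did not pass the test (log2 fold change -0.91, standard error 0.33, edgeR adjusted p = 0.9999). Stromal-like cells had 10.8, 6.14, 9.09 and 5.01 CPM. These stromal-like values overlapped between the conditions and lay below every epithelial-like value. A small stromal-like cluster of 206 cells, led by Gsn, Clec3b and C3, had a mean of 52.3 CPM, from 2 to 34 UMIs per library, whereas the main stromal-like cluster had 6.17 CPM. Outside the 4 classes, an unnamed cluster led by the smooth muscle genes Myh11 and Tagln had 26.8, 23.7, 14.6 and 39.6 CPM. In Fosl2cKO 2 this was above the epithelial-like value. A class named from the genes Enpep and Asb4 had 8.48 to 14.2 CPM. Interstitial-like and granulosa-like cells had means of 0.54 and 0.32 CPM, with overlapping ranges. The former were higher by 1.04 log2 units (standard error 0.44), which passed (edgeR adjusted p = 0.0522, between 0.0121 and 0.488 over the alternatives, the latter without Fosl2cKO 1) on 1 to 16 UMIs a library. After each cell had been thinned to 2000 UMIs, a Rbp4 UMI was found in 4.36% ± 1.75 of epithelial-like cells (mean and SD, n = 4 libraries; 18.2% before thinning) and in 0.09% ± 0.18 of NK or T-like cells (0.085% before thinning), a class taken to lack these genes. The median unthinned cell held 3780 to 13391 UMIs in the former class and 1357 to 3434 UMIs in the latter. Summed, NK or T-like cells held 374244 to 1086744 UMIs a library, so that low CPM values in them stand for few UMIs.

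Stra6 (ENSMUSG00000032327, chromosome 9, 58063788 to 58153996, plus strand), the receptor that takes up retinol from RBP4, varied widely between libraries. In granulosa-like cells it had 15.7, 31.6, 51.2 and 22.9 CPM, from 1111 to 2556 UMIs. Fosl2cKO 1 was highest and Fosl2F/F 1 lowest, and the conditions overlapped. The log2 fold change was 0.62 (standard error 0.43, edgeR adjusted p = 0.9999), and without Fosl2cKO 1 it was -0.032.
In stromal-like cells Stra6 had 33.1, 12.1, 9.42 and 8.60 CPM, from 79 to 171 UMIs. Both Fosl2F/F libraries were higher, with Fosl2F/F 1 well above the other 3. The log2 fold change was -1.35 (standard error 0.41) and did not pass (edgeR adjusted p = 0.431, between 0.0457 and 0.9998 over the alternatives of processing). It passed only when no filter on low counts was applied, and without Fosl2F/F 1 it was -0.40. Granulosa markers, summed over their list, also had more UMIs in the stromal-like cells of that library, with 585, 326, 189 and 256 CPM (6346 to 12346 CPM in granulosa-like cells themselves), and luteal markers had 70.0, 151, 24.8 and 27.5 CPM. Their part in the difference was not tested.
Interstitial-like cells had 7.23 to 10.7 CPM and epithelial-like cells 3.44 to 16.4 CPM, and NK or T-like cells reached 8.02 CPM, so that these ranges overlapped. A Stra6 UMI was found after thinning in 5.33% ± 2.88 of granulosa-like cells (25.3% before), in 1.99% ± 0.53 of stromal-like cells (5.04%), and in 0.48% ± 0.32 of NK or T-like cells (1.08%).

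In the Fosl2F/F libraries Stra6 was highest in luteal-like cells, a class named from markers of the corpus luteum. This class had 183, 305, 19.1 and 15.1 CPM, from 624, 1023, 9 and 10 UMIs. Both Fosl2F/F libraries were high and both libraries labelled Fosl2cKO low, below their own granulosa-like cells. It was added to the tests after its levels had been seen. The log2 fold change was -3.91 (standard error 0.45, edgeR adjusted p = 1.26e-06). It ran from -4.26 to -3.51 over the 6 alternatives tried here, which were DESeq2, the replicate number as a block and each library left out. Stricter doublet removal, other cell filters and other clusters were not put through this test. Of the 3 members tested 1 passed, in a class where 11.3% of 10559 genes did (6.42% higher and 4.90% lower). The difference was also larger than that in granulosa-like cells, by a log2 interaction of -4.55 (standard error 0.35, edgeR adjusted p = 2.96e-06), a test in which 823 of 16394 genes (5.02%) passed, 2.64% with a higher and 2.38% with a lower effect. The luteal-like cluster held 135, 404, 40 and 57 cells. Akr1c18, a progesterone-degrading enzyme used as a marker to name the cluster, had 2558, 2220, 138 and 1.51 CPM in it, and the 5 luteal markers summed to 11040, 8371, 2470 and 3231 CPM. Of the other 4 markers, Sfrp4 (6389, 3655, 1046 and 1254 CPM) and Ptgfr (1910.0, 2296, 1022 and 1427 CPM) were also higher in both Fosl2F/F libraries. Lhcgr, the receptor of luteinizing hormone, was higher in both libraries labelled Fosl2cKO (142, 159, 168 and 540.2 CPM), and Parm1 overlapped between the conditions (41.3, 40.5, 95.6 and 7.57 CPM). The part of these markers in the Stra6 result was not tested.
With coarser clusters Stra6 in luteal-like cells had 184, 313, 18.2 and 13.4 CPM, from 620, 1021, 7 and 8 UMIs in 111, 342, 15 and 32 cells. The Fosl2F/F values were thus nearly the same UMIs as in the reported clustering. Without integration of the libraries the cluster named luteal-like held 53, 5, 2 and 1 cells, too few for a value, and another cluster of 469 cells, which scored highest for luteal markers, stayed unnamed because interstitial markers scored nearly as high. This cluster, led by Akr1c18 and Onecut2 and looked at after the clusters had been seen, held 112, 342, 8 and 7 cells and had 184, 313, 30.2 and 0 CPM of Stra6, the last 2 from 4 and 0 UMIs. Both Fosl2F/F libraries were again the higher ones, with few cells behind the others. In the reported clustering, an unnamed cluster with both interstitial and luteal markers (cluster 11, led by Hsd17b7 and Ces2a) had 103, 13.2, 23.0 and 11.4 CPM, the first of these from 11 UMIs, and its conditions overlapped.

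Lrat (ENSMUSG00000028003, chromosome 3, 82892579 to 82903973, minus strand), which esterifies retinol for storage, was a gene of stromal-like cells. They had 61.3, 42.7, 34.9 and 53.4 CPM, from 292 to 491 UMIs. Each library labelled Fosl2cKO lay below or within the Fosl2F/F values, the conditions overlapped, and the log2 fold change of -0.27 (standard error 0.32, edgeR adjusted p = 0.9997) turned to 0.068 without Fosl2F/F 1. The level was 7.21 log2 units above that of granulosa-like cells (standard error 0.30, edgeR adjusted p = 2.01e-11) and interstitial-like cells were 6.60 log2 units below it (standard error 0.35, edgeR adjusted p = 4.88e-10). Lrat met the filter on low counts of these tests only through the stromal-like cells, where it was high. Their p-values are therefore no added evidence, and the levels carry the description. Interstitial-like, granulosa-like and epithelial-like cells had means of 0.50, 0.33 and 1.003 CPM, from at most 36 UMIs in a library, and their ranges overlapped. Outside the 4 classes an unnamed cluster led by the smooth muscle genes Myh11 and Tagln had 6.26 to 28.5 CPM. Within the stromal-like cells Lrat lay in the main cluster (38.0 to 61.9 CPM) more than in the Gsn cluster (0 to 31.5 CPM, at most 5 UMIs in a library). After thinning, 8.53% ± 3.07 of stromal-like cells had a Lrat UMI (13.9% before). Before thinning, 0.14% of NK or T-like cells had one.

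Adh1 (ENSMUSG00000074207, chromosome 3, 138260991 to 138290698, plus strand), an alcohol dehydrogenase that oxidizes retinol, was highest in interstitial-like cells. There it had 126, 112, 173 and 108 CPM, from 601 to 2803 UMIs. Fosl2cKO 1 was highest and Fosl2cKO 2 lowest, with a log2 fold change of 0.21 (standard error 0.29, edgeR adjusted p = 0.9998) that was -0.19 without Fosl2cKO 1. Adh1 was also among the 10 genes that led this cluster, although it was not used to form it.
Theca-like cells, the androgen-making cells around the follicle, had 36.1, 28.8, 144 and 23.0 CPM, with Fosl2cKO 1 above the other 3. In the same library the theca marker Cyp17a1, the enzyme of androgen synthesis, had 60.4 CPM in theca-like cells, against 1770 to 4105 CPM in the others. Of the other 4 theca markers, Insl3 (4.55 CPM, against 5.11 to 9.41 CPM) and Hhip (125 CPM, against 182 to 392 CPM) were also lowest there, by less, while Srd5a1 (65.8 CPM) and Ptch1 (127 CPM) were within the range of the others. The part of these markers in the Adh1 level was not tested. The log2 fold change of Adh1 in theca-like cells, also tested after the levels had been seen, was 1.25 (standard error 0.60, edgeR adjusted p = 0.999). The alternatives were the 6 tried for Stra6 in luteal-like cells. The log2 fold change of Adh1 turned to -0.56 without Fosl2cKO 1 and was 2.06 without Fosl2cKO 2.
Stromal-like cells had 6.38 to 8.00 CPM of Adh1, but the Gsn cluster among them had 158, 49.6, 59.7 and 148 CPM, from 8 to 51 UMIs, while the main cluster had 2.66 to 5.84 CPM. Granulosa-like cells had 1.26 to 2.92 CPM and epithelial-like cells 0.63 to 5.42 CPM, and these overlapped each other and NK or T-like cells (0 to 5.52 CPM). The share with a UMI after thinning was 17.4% ± 3.43 in interstitial-like (44.7% before) and 0.27% ± 0.54 in NK or T-like cells (0.56% before).

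Aldh1a1 (ENSMUSG00000053279, chromosome 19, 20492715 to 20643465, plus strand) makes retinoic acid from retinal. Of the 2053 stretches of 91 bases in the ends of its transcripts, 5 also occurred in another gene, and none did for the other 8 members. Interstitial-like cells had 2146, 1902, 2195 and 2144 CPM, from 10217 to 35571 UMIs, and theca-like cells 2331, 1658, 2875 and 1777 CPM. The conditions overlapped in both classes. In interstitial-like cells the spread between libraries was small against the level (mean 2097 ± 132 CPM, SD, n = 4), and the log2 fold change was 0.07 (standard error 0.30, edgeR adjusted p = 0.9998). These cells exceeded granulosa-like cells by 4.38 log2 units (standard error 0.19, edgeR adjusted p = 4.88e-11) and stromal-like cells by 5.24 log2 units (standard error 0.20, edgeR adjusted p = 2.37e-11).
Of the 4 classes, epithelial-like cells came next, with 231, 238, 254 and 268 CPM. Both libraries labelled Fosl2cKO were higher, by a log2 fold change of 0.11 (standard error 0.30, edgeR adjusted p = 0.9999). Granulosa-like cells had 161, 80.6, 117 and 77.3 CPM, with overlapping conditions and a log2 fold change of -0.36 (standard error 0.37, edgeR adjusted p = 0.9999) that was 0.29 without Fosl2F/F 1. The mural-like subclass, where Aldh1a1 was highest, made up 22.6%, 6.62%, 10.8% and 4.46% of the granulosa-like cells, and its part in these values was not tested. Stromal-like cells had 66.5, 66.5, 49.1 and 46.0 CPM, where both Fosl2F/F libraries were higher (log2 fold change -0.51, standard error 0.29, edgeR adjusted p = 0.9997).
NK or T-like cells had 61.6, 56.1, 44.2 and 39.2 CPM, also with both Fosl2F/F libraries higher, so the stromal-like level was close to that of a class taken to lack the gene. The share with an Aldh1a1 UMI after thinning was 89.9% ± 3.43 in interstitial-like, 36.2% ± 2.79 in epithelial-like, 17.9% ± 5.57 in granulosa-like, 10.7% ± 2.02 in stromal-like and 6.95% ± 3.07 in NK or T-like cells. Before thinning these shares were 97.3%, 70.6%, 52.9%, 22.1% and 13.1%.

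Aldh1a2 (ENSMUSG00000013584, chromosome 9, 71215789 to 71296243, plus strand), the other retinal-oxidizing enzyme among these genes, was highest in epithelial-like cells, the cells that cover the ovary. They had 588, 470.02, 446 and 624 CPM, from 931 to 1563 UMIs, with a log2 fold change of -0.03 (standard error 0.31, edgeR adjusted p = 0.9999). Interstitial-like cells had 192, 171, 239 and 158 CPM (log2 fold change 0.10, standard error 0.29, edgeR adjusted p = 0.9998). In both classes the libraries labelled Fosl2cKO held the highest and the lowest value, and the Fosl2F/F libraries lay between them.
Stromal-like cells had 31.3, 26.0, 29.3 and 29.2 CPM, nearly the same in every library (log2 fold change 0.00, standard error 0.31, edgeR adjusted p = 0.9997). The 3 ranges did not overlap. Granulosa-like cells had 2.36 to 6.16 CPM, within the range of NK or T-like cells (0 to 7.36 CPM), and the epithelial-like level exceeded theirs by 7.15 log2 units (standard error 0.27, edgeR adjusted p = 6.09e-12). After thinning, an Aldh1a2 UMI was found in 64.0% ± 7.75 of epithelial-like, 28.1% ± 4.73 of interstitial-like, 4.11% ± 0.82 of stromal-like and 0.64% ± 0.75 of NK or T-like cells (88.3%, 62.9%, 9.85% and 1.21% before).

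Crabp2 (ENSMUSG00000004885, chromosome 3, 87948666 to 87953376, plus strand) encodes a protein that binds retinoic acid and hands it to its receptor. In granulosa-like cells its level was above that of Crabp1, with 53.4, 40.5, 36.2 and 39.9 CPM, from 1559 to 3823 UMIs. Fosl2F/F 1 was highest, and the conditions did not overlap, although Fosl2F/F 2 and Fosl2cKO 2 were close. The log2 fold change of -0.34 (standard error 0.22) did not pass (edgeR adjusted p = 0.9999). Oocyte-like cells had 27.0 to 130.3 CPM, but from only 4 to 12 UMIs a library.
Stromal-like, interstitial-like and epithelial-like cells had 3.18 to 6.19, 2.63 to 4.83 and 0.63 to 2.57 CPM. Each of these ranges overlapped that of NK or T-like cells (1.35 to 10.7 CPM). Interstitial-like cells were 3.49 log2 units below granulosa-like cells (standard error 0.17, edgeR adjusted p = 1.13e-10). After thinning, 7.40% ± 1.14 of granulosa-like (31.1% before) and 1.203% ± 1.21 of NK or T-like cells (2.001% before) had a Crabp2 UMI.
Crabp1 (ENSMUSG00000032291, chromosome 9, 54764748 to 54773110, plus strand), its relative, was near absent. Granulosa-like cells had 25, 15, 5 and 6 UMIs, which is 0.35, 0.39, 0.10 and 0.12 CPM. Both Fosl2F/F values were higher, but the difference did not pass (edgeR adjusted p = 0.942). Crabp1 met the filter on low counts only through the Fosl2F/F libraries, where it was higher, so this p-value is no evidence on a difference. In oocyte-like cells 21 UMIs came from Fosl2cKO 2 and 0 from the other 3 libraries.

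Cyp26b1 (ENSMUSG00000063415, chromosome 6, 84571414 to 84593908, minus strand), which degrades retinoic acid, was low in all 4 classes. Epithelial-like cells had 3.44 to 4.47 CPM and stromal-like cells 2.05 to 3.92 CPM, ranges that overlapped. Interstitial-like and granulosa-like cells had means of 0.46 and 0.37 CPM, also overlapping. Higher levels lay outside these classes, in theca-like cells (29.998, 16.2, 9.10 and 34.1 CPM) and lymphatic endothelial-like cells (8.74 to 29.0 CPM, at most 14 UMIs). Endothelial-like cells had 3.67 to 23.2 CPM, a range that overlapped those of epithelial-like and stromal-like cells. The Gsn cluster of stromal-like cells had a mean of 22.0 CPM from 2 to 9 UMIs per library. After thinning 2.77% ± 1.35 of theca-like had a Cyp26b1 UMI (10.6% before). Before thinning, 0.36% of NK or T-like cells had one.

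Within the granulosa-like cells, clustered again without retinoid genes, Stra6, Crabp2 and Aldh1a1 took different places. The mix of subclasses differed between libraries, with 9.30%, 31.8%, 20.2% and 14.6% cumulus-like and 8.25%, 12.2%, 7.36% and 14.7% growing follicle-like cells. Its part in the condition comparisons of the whole class was not tested. Stra6 was highest in growing follicle-like cells, led by Amh and Cited1, with 33.0, 49.2, 108 and 29.1 CPM, and in cumulus-like cells, which surround the oocyte, with 42.6, 44.2, 72.7 and 44.5 CPM. Mural-like cells, which line the follicle wall, had only 2.85 to 5.44 CPM and atretic-like cells, from degenerating follicles, 4.07 to 8.26 CPM. Fosl2cKO 1 was highest in the first pair, and in cumulus-like cells both libraries labelled Fosl2cKO lay above both others, Fosl2cKO 2 by less than 1 CPM.
Crabp2 ran the other way in part. It had 40.5, 158, 67.0 and 52.5 CPM in atretic-like cells and 111, 60.3, 56.5 and 67.2 CPM in glycolytic antral-like cells (led by Cox4i2 and Ndufa4l2), but only 4.77 to 9.19 CPM in cumulus-like cells, below every other named subclass in every library. Aldh1a1 was highest in mural-like cells, with 436, 209.9, 377 and 267 CPM, and lowest in growing follicle-like cells, with 30.8 to 41.5 CPM. Aldh1a2 had 5.81 to 15.3 CPM in cumulus-like cells and at most 3.99 CPM in the other named subclasses. These levels are given as a description and were not tested between subclasses.

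**Figure D2:**
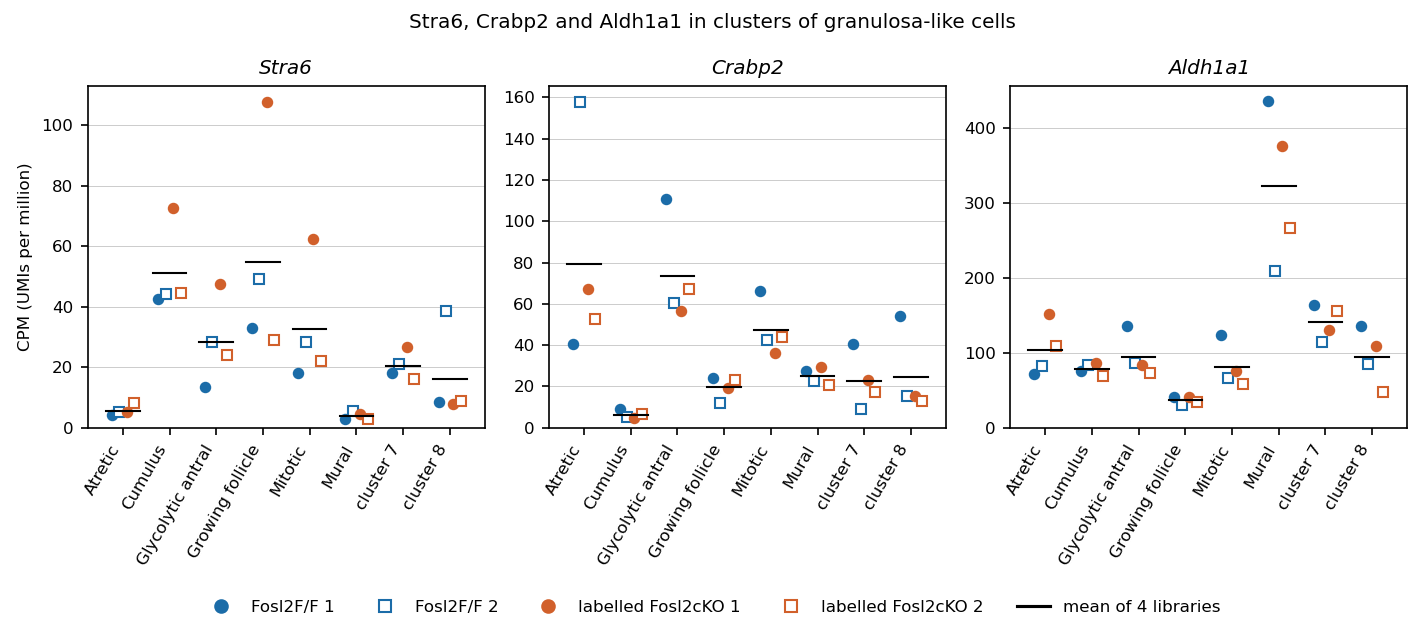
CPM of Stra6, Crabp2 and Aldh1a1 (vertical axis) in 6 named subclasses and 2 unnamed clusters of granulosa-like cells, with 1 point per library and a line at the mean of the 4 libraries. Stra6 was low in mural-like and atretic-like cells, Crabp2 was low in cumulus-like cells, and Aldh1a1 was highest in mural-like cells.

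Between the conditions, edgeR called none of these genes in the 4 classes. In interstitial-like cells 0 of 5 tested passed (0.126% of 13462 genes did), in stromal-like cells 0 of 8 (0.242% of 14038), in granulosa-like cells 0 of 9 (0.00579% of 17272) and in epithelial-like cells 0 of 4 (0.115% of 11270). Those with an unadjusted p under 0.05 numbered 0, 1, 1 and 1 (4.33%, 4.28%, 4.78% and 3.49% of all genes), and were Stra6, Crabp1 and Rbp4 in the last 3 classes. Crabp1 entered this test only through the Fosl2F/F libraries, where it was higher, so its p-value is no evidence on a difference. DESeq2, which gave an adjusted p to 5, 8, 5 and 4 of the members, called 0 in each class. Genes not tested by edgeR had too few UMIs. For the members that edgeR tested, median log2 fold changes were 0.07, -0.27, -0.33 and -0.45, against -0.01, -0.01, -0.02 and -0.02 for all genes tested. These medians include members below 10 CPM, and the granulosa-like median was the value of Adh1, at 1.26 to 2.92 CPM. Among members with a mean of 10 CPM or more, the conditions did not overlap for 0 of 3, 2 of 4 (Aldh1a1 and Stra6), 1 of 3 (Crabp2) and 2 of 3 (Aldh1a1 and Rbp4), and among all genes at that level this held for 27.7%, 28.3%, 33.4% and 22.2%. An exact permutation test of 2 against 2 libraries cannot give a two-sided p below 0.333.
The condition effect was also compared between classes by an interaction term. Against granulosa-like cells, edgeR called 0 of the members in interstitial-like, stromal-like and epithelial-like cells (0% of 17321, 17488 and 17120 genes), 1, 1 and 0 at an unadjusted p under 0.05 (2.87%, 3.32% and 2.94% of all genes), and DESeq2 called 0. Without Fosl2F/F 2, each of the 3 tests called Stra6 and no other member, while they called 198 of 17879, 88 of 18182 and 28 of 17944 genes in all (1.11%, 0.484% and 0.156%). In theca-like cells, tested later, 0 of 7 passed (0.0623% of 12849 genes), 0 had an unadjusted p under 0.05 (4.02% of all genes) and DESeq2 called 0. Their interaction with granulosa-like cells gave 0 of 8 in edgeR (0% of 16960 genes) and 0 in DESeq2, with 2 at an unadjusted p under 0.05 in each (2.87% and 0.851% of all genes).

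**Figure D3:**
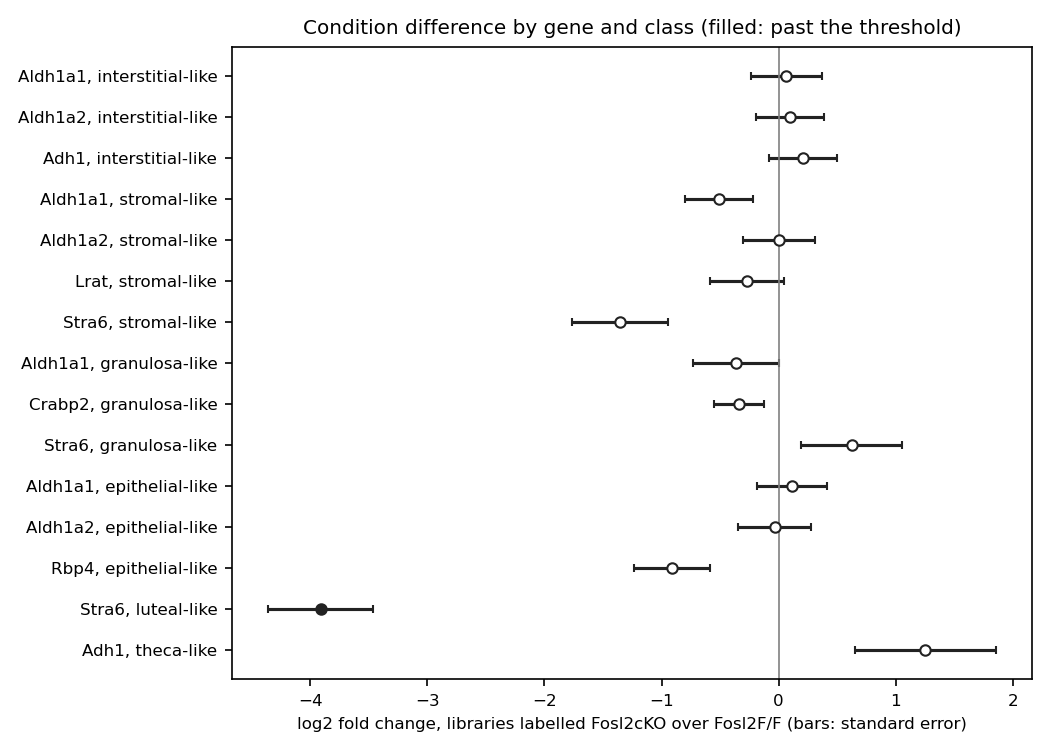
Log2 fold change of each gene with a mean of 10 CPM or more between libraries labelled Fosl2cKO and Fosl2F/F libraries (horizontal axis), with bars of 1 standard error from edgeR, for 13 pairs of gene and class, for Stra6 in luteal-like cells and for Adh1 in theca-like cells. The luteal-like and theca-like pairs were added after their levels had been seen. Only Stra6 in luteal-like cells is past the threshold (filled point, -3.91), in a class where 11.3% of all genes passed. The others run from -1.35 to 1.25.

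A wider list of 60 genes of the pathway (59 of them in the files) was counted in the same tests. Between conditions 37, 36, 43 and 36 of them were tested in interstitial-like, stromal-like, granulosa-like and epithelial-like cells, and edgeR called 0 in each. With 1 library left out this changed. In interstitial-like cells 2 (Tgm2 and Fabp5) were lower without Fosl2F/F 2, where 370 of 13562 genes passed. In stromal-like cells 2 (Rdh10 and Lrp2) were higher without Fosl2cKO 2, with 249 of 14342 genes. In epithelial-like cells 2 (Adh7 and Rdh1) were higher without Fosl2cKO 2, with 121 of 12303 genes, and 1 (Lpl) without Fosl2cKO 1, with 58 of 11084. Without a filter on low counts 1 passed in each of stromal-like (Rdh10), granulosa-like (Rarres2) and epithelial-like cells (Adh7). The share of all genes that passed in that setting is not given, so these calls are not read as a result about the list. DESeq2 called 1 of the 32 to which it gave an adjusted p in granulosa-like cells (1.19% of 14847 genes passed). This was Rarres2, which was lower in the libraries labelled Fosl2cKO. In luteal-like cells 1 of 30 passed (11.3% of all genes). Aldh1a3, another enzyme of retinoic acid synthesis, was higher in the libraries labelled Fosl2cKO, with a log2 fold change of 4.27 (standard error 0.84, edgeR adjusted p = 0.00127). It had 0.29, 1.19, 6.38 and 24.2 CPM there, from 1, 4, 3 and 16 UMIs. The gene passed the filter on low counts only through the libraries labelled Fosl2cKO, where it was high, so this call is no evidence of a difference. The call was lost without Fosl2F/F 1 (log2 fold change 3.55, edgeR adjusted p = 0.346) and without Fosl2F/F 2 (log2 fold change 5.33, edgeR adjusted p = 0.128), and without Fosl2cKO 2 the gene had too few UMIs to be tested.
Between classes, 25 of 45 tested were higher and 9 lower in interstitial-like than in granulosa-like cells, 24 and 6 in stromal-like and 25 and 6 in epithelial-like cells. The shares of all genes were 32.6% and 34.0%, 35.1% and 35.7%, and 32.3% and 35.6%. In interstitial-like against stromal-like cells 13 were higher and 19 lower (29.0% and 33.0% of all genes).
The gene with the highest mean level over the 4 classes is given for the roles below. Adh5 led retinol oxidation, with 155 to 172 CPM in granulosa-like, 106 to 155 CPM in interstitial-like, 73.0 to 113 CPM in epithelial-like and 68.6 to 109.7 CPM in stromal-like cells. Every granulosa-like value lay above every epithelial-like and stromal-like value. Dhrs3, which returns retinal to retinol, had 33.4 to 122 CPM, with the highest mean in interstitial-like cells. Aox3, an aldehyde oxidase, had 46.0 to 98.0 CPM in stromal-like cells and at most 1.45 CPM in interstitial-like and granulosa-like cells.
Fabp5, a fatty acid-binding protein that can carry retinoic acid, had 671, 562, 302 and 603 CPM in granulosa-like cells and at most 282 CPM in the other 3 classes. Cyp26a1, the relative of Cyp26b1, had 7.13 to 13.4 CPM in epithelial-like cells and at most 0.11 CPM in the other 3. The cofactor Nrip1 led receptors and cofactors (164 to 568 CPM), and of the receptors themselves Rara was highest, at 26.4 to 57.5 CPM over all 4 classes. Rarres2, a retinoid-responsive gene encoding chemerin, had 441 to 661 CPM in epithelial-like and 337 to 671 CPM in stromal-like cells. In granulosa-like cells it had 41.8, 36.2, 19.2 and 19.5 CPM, non-overlapping but not past the threshold (log2 fold change -1.04, standard error 0.19, edgeR adjusted p = 0.414).

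**Figure D4:**
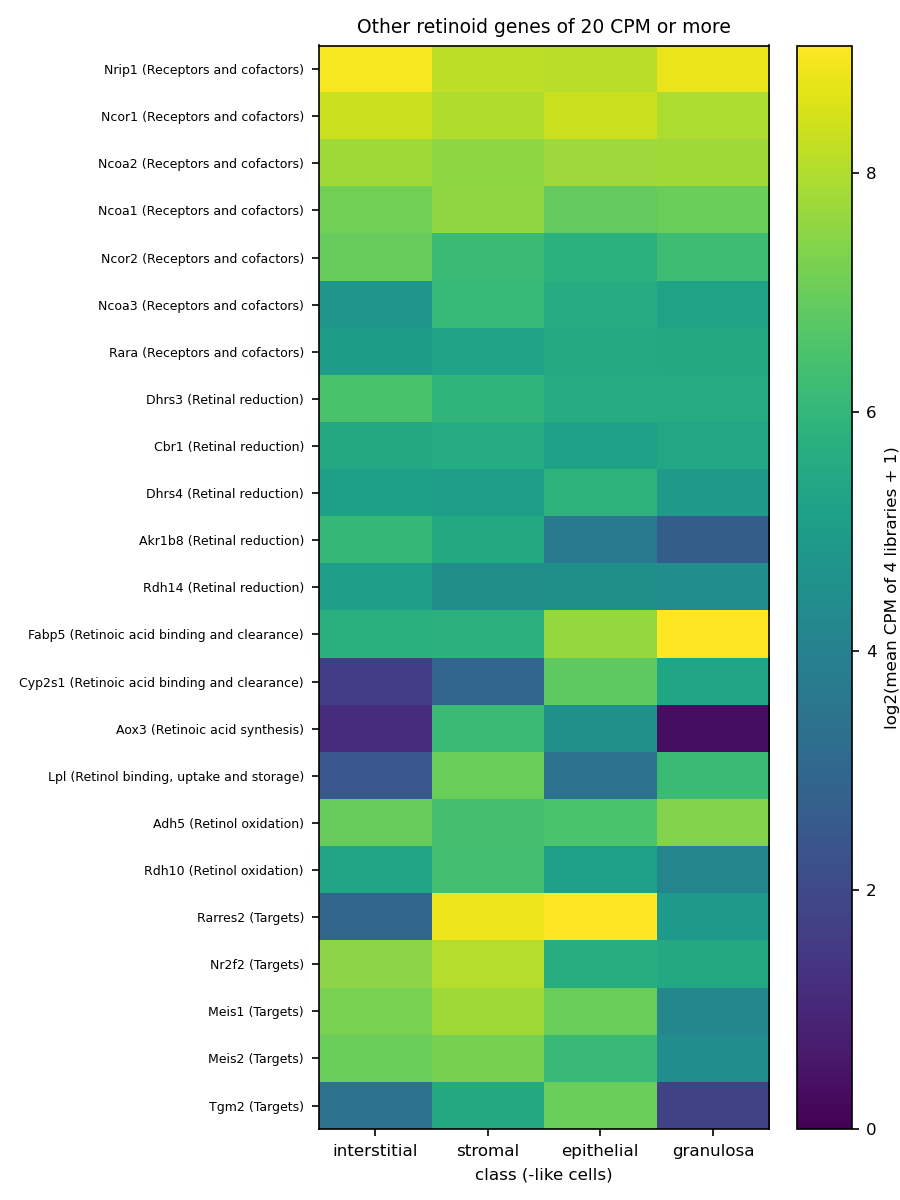
Mean level over the 4 libraries as log2(mean CPM + 1), by colour, of 23 genes of the wider list with a mean of 20 CPM or more over the 4 classes, with their role in brackets, in the 4 classes. Rarres2 stands out in stromal-like and epithelial-like cells and Fabp5 in granulosa-like cells.

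Genes with the most similar pattern were found by the correlation of mean log2(CPM + 1) over the 13 named classes, among 12248 genes with 20 CPM or more in 1 class. The classes share libraries and depth, and the correlations are given as a description. The closest were Hipk2 for Aldh1a1 (r = 0.925), Epb41l3 for Aldh1a2 (0.967), Alas1 for Adh1 (0.918), Gm10115 for Rbp4 (0.945), Gm30075 for Lrat (0.965), Fbln5 for Cyp26b1 (0.852) and Pdgfc for Stra6 (0.893). For Crabp1 and Crabp2 they were Ccdc74a (0.986) and Rad50 (0.959), both highest in oocyte-like cells. Crabp1 and Crabp2 had few UMIs in that class, and its part in these correlations was not tested. The next 2 were Gm36201 and Suclg2 for Aldh1a1, Nkain4 and Mt2 for Aldh1a2, Ggh and Bpifb5 for Adh1, Gabra4 and Aprt for Rbp4, Hc and Pamr1 for Lrat, Sh2d4b and Dll1 for Cyp26b1, and Dok6 and Pdia4 for Stra6. Those for Crabp1 were Gpr158 and Slc24a2, and those for Crabp2 were Clip4 and Adarb2.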

How the data were processed

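Per the methods and the labels, the authors aligned reads with CellRanger to GRCm38 and kept uniquely mapped reads. The deposited values are raw UMI counts per gene and barcode, and it is not stated whether the background removal with CellBender that the methods describe is in them. All 4 libraries were used. The filters required 500 genes, more than 1000 UMIs, a mitochondrial share below 10% and a hemoglobin share below 0.1%, and the highest Scrublet scores (scanpy 1.11.5) were removed at 0.8% of cells per 1000 cells, which took out 5.74% to 19.4% of a library. SCTransform (sctransform 0.4.2), integration by reciprocal PCA and Louvain clustering at a resolution of 0.8 (0.5 for granulosa-like cells) used Seurat 5.3.0 without the retinoid genes. Clusters were named from markers at a score of at least 0.15, set after the clusters had been seen. That gave 13 named classes.

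UMIs summed per library and class were tested with edgeR 4.0.16 (filterByExpr, TMM, quasi-likelihood test, Benjamini-Hochberg adjustment over all genes), with DESeq2 1.42.0 as an alternative. The test was tried on simulated data. Cells were thinned to 2000 UMIs for shares, leaving out 4.23% to 20.3% of a library's cells. The 9 members and the wider list were chosen with earlier results of these data known. Named are the 9 members, with log2 fold changes between conditions where the mean reached 10 CPM, genes of the wider list past a threshold or highest in their role (1 role is not reported here), and the 3 genes most alike. Crabp1 in granulosa-like cells, Adh1 in theca-like cells, Stra6 in luteal-like cells, Rara, Cyp26a1, the luteal and theca markers, Rarres2 in granulosa-like cells and the luteal and theca tests were added after their values had been seen. Gene positions are from GENCODE M21 (32158 of the files' genes matched). The replicate numbers are only labels: the deviations of same-numbered libraries correlated at 0.21, -0.04, -0.36 and -0.16 in interstitial-like, stromal-like, granulosa-like and epithelial-like cells.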

Additional observations from a re-analysis of the deposited data

Results flagged for a closer look

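The condition effect of Stra6 differed between luteal-like and granulosa-like cells by a test of the difference itself, which was added after the luteal-like levels had been seen and is no independent evidence of them (log2 interaction -4.55, standard error 0.35, edgeR adjusted p = 2.96e-06). In luteal-like cells the level was 183, 305, 19.1 and 15.1 CPM (Fosl2F/F 1 and 2, Fosl2cKO 1 and 2), and that of Akr1c18, the marker of the 5 used to name the class that differed most, was 2558, 2220, 138 and 1.51 CPM. Sfrp4 and Ptgfr were also higher in both Fosl2F/F libraries, Lhcgr was higher in both others, and Parm1 overlapped. Over the 5 alternatives tried (DESeq2 and each library left out) the interaction ran from -4.91 to -4.19, with adjusted p between 6.70e-20 and 4.64e-06.

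Aldh1a1 was singled out because the conditions lay apart in opposite directions in stromal-like cells (log2 fold change -0.51) and epithelial-like cells (0.11). Neither passed, and this difference between the 2 classes was not tested directly. Conditions did not overlap for 28.3% and 22.2% of all genes of 10 CPM or more in these classes. NK or T-like cells, taken to lack the gene, also had both Fosl2F/F libraries higher, near the stromal-like level. Against granulosa-like cells, the interactions were -0.20 (standard error 0.33) and 0.43 (standard error 0.35), with an edgeR adjusted p of 1 in both.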

How the results depend on the processing

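Counts of members past the threshold moved by at most 1.5 times in 162 of 169 combinations of test and alternative, and by more in 7. The shares of all genes that passed under each alternative are not given in this paragraph. Rises in these counts are therefore not read as results about the members. Within that tolerance the counts ran from 5 to 7 in interstitial-like, 7 to 8 in stromal-like and 6 to 7 in epithelial-like against granulosa-like cells, and from 5 to 6 in interstitial-like against stromal-like cells. Counts rose from 0 to 1 (Stra6) in stromal-like cells and in their interaction without a filter on low counts, and in the interactions of interstitial-like, stromal-like and epithelial-like cells without Fosl2F/F 2 (otherwise 0, range 0 to 1). They rose to 1 (Adh1, range 0 to 1) in theca-like cells without Fosl2cKO 2, and from 1 to 2 (Stra6 and Aldh1a1, range 1 to 2) in the luteal-like interaction without Fosl2F/F 2. For the 13 pairs of gene and class at 10 CPM or more in the 4 classes, Stra6 in luteal-like cells and Adh1 in theca-like cells, 18 of 194 log2 fold changes under alternatives turned sign, all of them below the threshold, and 2 newly passed. With 1 library left out the ranges that crossed 0 were -0.042 to 0.18 for Aldh1a1, -0.25 to 0.38 for Aldh1a2 and -0.19 to 0.52 for Adh1 in interstitial-like cells, -0.13 to 0.19 for Aldh1a2 and -0.55 to 0.068 for Lrat in stromal-like cells, -0.80 to 0.29 for Aldh1a1 and -0.032 to 1.16 for Stra6 in granulosa-like cells, -0.26 to 0.16 for Aldh1a2 in epithelial-like cells, and -0.56 to 2.06 for Adh1 in theca-like cells. Coarser clusters gave -0.049 for Aldh1a1 in interstitial-like cells, and no integration gave -0.048 for Aldh1a1 and -0.13 for Aldh1a2 there and -0.20 for Aldh1a2 in stromal-like cells, where cells over 2000 UMIs gave -0.052 and cells under 5% mitochondrial UMIs -0.016. With coarser clusters no theca-like class stood apart from the interstitial-like cells. The cause of the sign changes was not tested.

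With the replicate number as a block, 0 members passed in the 4 classes and in theca-like cells, and 1 (Stra6, log2 fold change -3.90) passed in luteal-like cells. The block moved the count of all genes called to 18, 0, 44 and 48 in interstitial-like, stromal-like, granulosa-like and epithelial-like cells, from 17, 34, 1 and 13. DESeq2 called 51, 45, 177 and 19. Shares of cells with a UMI moved with the depth they were thinned to in 56 of 72 cases. Counts were low for Crabp1 and Cyp26b1, for Lrat outside stromal-like cells and for Rbp4 in interstitial-like and granulosa-like cells.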
